A study of Mus musculus with 9 samples.

Results

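Regions of open chromatin that lay wholly between genes made up 626 of the 1832 regions listed in 3 comparisons of C2C12 myotubes, the fused muscle cells that a mouse myoblast line forms in culture. A region was kept where the authors' annotation placed it in intergenic sequence and in no promoter, no sequence 1 to 5 kb upstream of a gene, and no exon, intron or untranslated region. The assay was ATAC-seq, which reads out open DNA by the places a transposase can reach, on 9 libraries. Of these, 3 came from untreated myotubes, 3 from myotubes given 10 mM ammonium acetate for 3 h, and 3 from myotubes given it for 24 h, after all had been differentiated in low-serum medium. All groups are the same cell line, no group received acetate without ammonium, and the single untreated group served as the control at both times. Ammonium, acetate and time in culture therefore cannot be told apart. The labels call the libraries of a group biological replicates and give no strain, age or allele.

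Intergenic DNA holds many enhancers, stretches that bind transcription factors and act on genes at a distance, and in muscle cells many of them carry the E-box that MyoD and myogenin bind. It also holds the downstream flank of each gene, which RNA polymerase enters after the polyadenylation site before it lets go of the DNA. Because the rule removes the 5 kb upstream of annotated starts, a region kept within 5 kb of a gene lies as a rule on its downstream side.

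The authors deposited 1 table of regions per comparison, without values per library, so depth per library is unknown here, and the values of single libraries and the overlap between groups cannot be shown. Each table gives the log2 fold change, the mean log2 CPM (reads in the region scaled to library size) and edgeR's p for the regions past a threshold. Of the 626 regions, 200 were listed for 3 h against untreated, 69 for 24 h against untreated and 429 for 24 h against 3 h. The lists for 3 h and for 24 h against 3 h hold regions changed at least 1.5-fold with a raw p below 0.005, and the list for 24 h against untreated holds adjusted p below 0.05. Higher and lower refer to the sign of the deposited value, while rose and fell are kept for regions with an edgeR adjusted p below 0.05. Dividing the size of each log2 fold change by the root of the deposited F statistic gave an approximate standard error, with medians of 0.22, 0.20 and 0.22 in the order above. In bulk chromatin, a region open in fewer nuclei and a region less open in each nucleus cannot be told apart. The identity of the cells could not be checked against marker levels, since the tables hold no levels of unchanged regions.

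The annotation was checked against RefSeq genes of the same assembly, GRCm38. Of the 626 regions, 70 overlapped a gene in RefSeq although the authors' annotation placed them between genes, 62 of these a long noncoding RNA gene, 4 a pseudogene and 4 a protein-coding gene. A further check against RefSeq start sites left 539 regions that neither overlapped a gene nor were found within 5 kb upstream of a start. For 21 of the 626 regions no start site could be measured, and these were counted as not upstream without a check. The regions were 201 to 2446 bp wide with a median of 618 bp. CpG islands touched 3 of the 626, CpG shores 4 and CpG shelves 13, and the other 610 lay in CpG-poor sequence alone.

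No genome sequence was used here, but the RefSeq promoter table (GRCm38.p6, 250 bases before to 50 after each start) crosses 4 of the regions, 3 over the start of a long noncoding RNA gene and 1 ending 14 bp before such a start. These stretches are shown because they are the letters of the regions themselves that could be read. Each is printed 5′ to 3′ on the strand of its gene, and capitals mark matches on either strand to the letters CAGCTG (an E-box of the kind myogenic factors bind), TGANTCA (AP-1, the Fos and Jun dimer), TGACGTCA (the cyclic AMP response element), CATTCC (TEAD) or TGTGGTT (RUNX). No overlapping matches occurred in the sequences shown. The Gm34119 start (chr3:121920662-121920961, plus strand) lies in a region listed lower at 3 h and the Gm41874 start (chr19:57404215-57404514, plus strand) in one listed higher at 3 h. The Gm34118 start (chr3:89331092-89331391, minus strand) lies in one listed lower at 24 h against 3 h. The part of the Gm52636 window inside its region (chr3:81629375-81629611, plus strand) comes from one listed higher at 24 h against 3 h.
Gm34119: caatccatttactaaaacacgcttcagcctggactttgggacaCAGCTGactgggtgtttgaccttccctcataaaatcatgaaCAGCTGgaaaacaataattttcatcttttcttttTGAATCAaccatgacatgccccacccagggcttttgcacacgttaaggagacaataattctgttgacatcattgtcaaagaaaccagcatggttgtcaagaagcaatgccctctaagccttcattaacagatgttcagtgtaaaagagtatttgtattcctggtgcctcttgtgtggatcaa
Gm41874: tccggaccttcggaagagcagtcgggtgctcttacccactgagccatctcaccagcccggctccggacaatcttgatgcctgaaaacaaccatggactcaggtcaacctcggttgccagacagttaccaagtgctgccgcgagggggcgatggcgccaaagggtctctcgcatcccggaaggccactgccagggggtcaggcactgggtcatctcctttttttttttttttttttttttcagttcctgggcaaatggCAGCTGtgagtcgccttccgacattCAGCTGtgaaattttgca
Gm34118: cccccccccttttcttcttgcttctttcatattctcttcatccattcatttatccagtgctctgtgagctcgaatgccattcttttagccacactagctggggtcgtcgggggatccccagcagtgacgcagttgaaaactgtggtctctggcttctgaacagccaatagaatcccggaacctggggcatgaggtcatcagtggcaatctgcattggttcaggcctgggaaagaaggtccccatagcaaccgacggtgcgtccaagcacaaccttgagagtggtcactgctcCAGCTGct
Gm52636: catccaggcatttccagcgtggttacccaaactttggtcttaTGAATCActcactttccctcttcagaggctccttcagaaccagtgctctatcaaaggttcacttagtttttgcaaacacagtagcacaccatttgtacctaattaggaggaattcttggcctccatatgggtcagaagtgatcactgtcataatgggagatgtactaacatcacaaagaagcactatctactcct
CAGCTG was present in 3 of these 4 stretches, with 2 copies each in Gm34119 and Gm41874 and 1 in Gm34118, and TGANTCA in 2, Gm34119 and Gm52636. Over all 32851 promoter windows of the table, 16.3% held CAGCTG, 7.81% TGANTCA, 1.79% TGACGTCA, 14.7% CATTCC and 5.27% TGTGGTT. The log2 fold changes of the 4 regions in the authors' deposited table were -0.69 (Gm34119), 0.65 (Gm41874), -0.91 (Gm34118) and 0.59 (Gm52636), none with an edgeR adjusted p below 0.05 (0.926, 0.943, 0.469 and 0.497). A match is a run of letters, not a bound site.

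After 3 h, 41 of the 80 intergenic regions listed higher lay within 5 kb of a protein-coding gene, against 4 of the 120 listed lower. Of the 200 regions, 80 were higher and 120 were lower in the authors' deposited table, and 1, downstream of Klf2, rose with an edgeR adjusted p below 0.05. Over all 146047 regions tested, 0.224% were listed higher, 0.179% lower, and 0.000685% had an adjusted p below 0.05. How many of the tested regions are intergenic is not known here, so the members' own rate cannot be set beside those shares. The share higher was 40.0% (95% Clopper-Pearson interval 33.2 to 47.1), against 63.7% (58.7 to 68.5) of the 388 other regions listed at 3 h and 53% (45.1 to 60.8) of the 166 that lay in introns alone. These intervals cover counting error only, and the differences were not tested. The median log2 fold change was 0.96 among higher and -0.73 among lower intergenic regions, beside 0.77 and -0.72 over all regions listed at 3 h. When the list was limited to raw p no larger than the largest listed at 24 h against untreated, 10 regions were left and all 10 were higher.

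Distance to the nearest protein-coding gene differed between the directions. That difference was not tested. Of the 45 regions listed at 3 h within 5 kb of one, 41 were higher (91.1%, 95% Clopper-Pearson interval 78.8 to 97.5), at 32 genes. Between 5 and 50 kb, 22 of 77 were higher (28.6%, 18.8 to 40.0), and between 50 and 500 kb, 14 of 73 (19.2%, 10.9 to 30.1). Beyond 500 kb, 3 of 5 were higher (60%, 14.7 to 94.7). Counted once per gene, 32 of 36 genes had higher regions, so the share does not rest on genes with several. Of the 41 near and higher regions, 32 lay downstream of the gene, 1 overlapped it, 8 lay at genes whose strand was not in the tables used, and 0 lay upstream, as the rule leads to. Counted once each, their 32 genes had a median length of 10873 bp and ran from 1522 to 242212 bp, beside a median of 17146 bp over all 21900 protein-coding genes. The median distance was 4676 bp for higher and 51022 bp for lower regions, and 2815 and 12228 bp when noncoding genes and pseudogenes were counted as well.

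**Figure D1:**
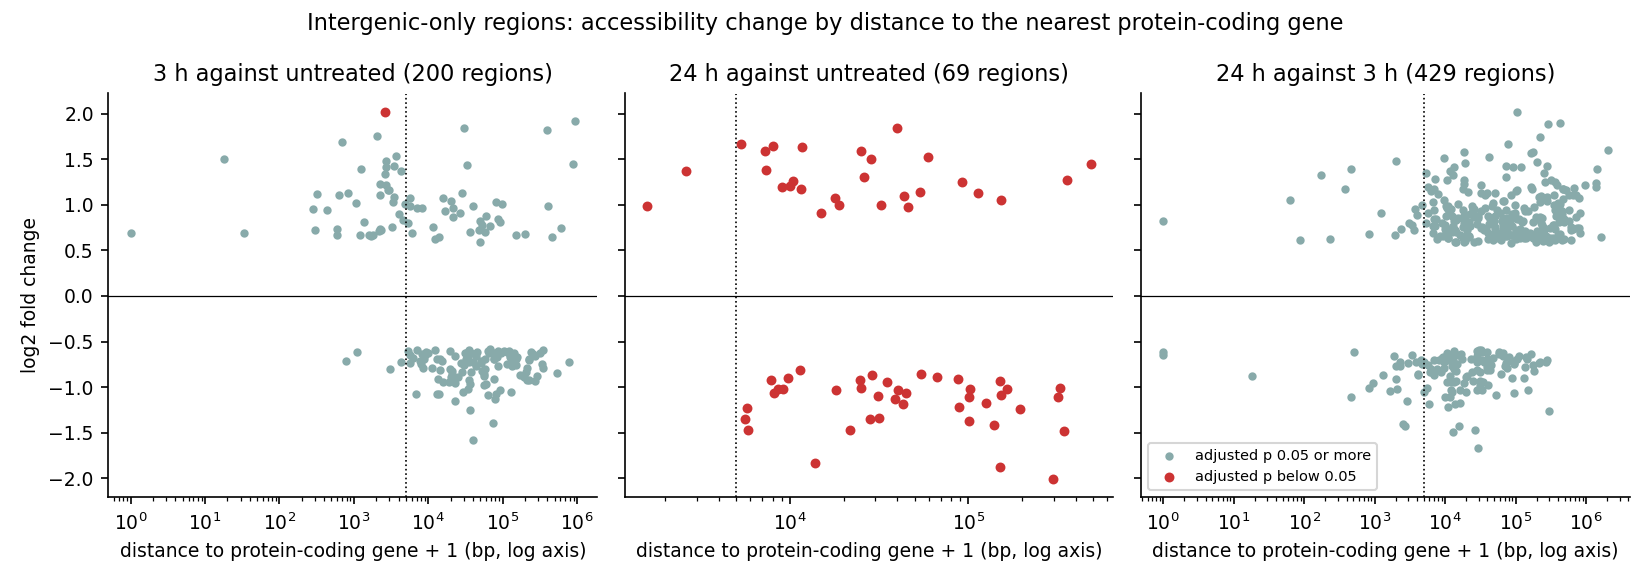
Log2 fold change of each listed intergenic-only region (vertical axis) against its distance in bp plus 1 to the nearest protein-coding gene (log axis), in 1 panel per comparison. The dotted line marks 5 kb, and red points have an adjusted p below 0.05. At 3 h, 41 of the 45 points left of the line are above 0.

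**Figure D2:**
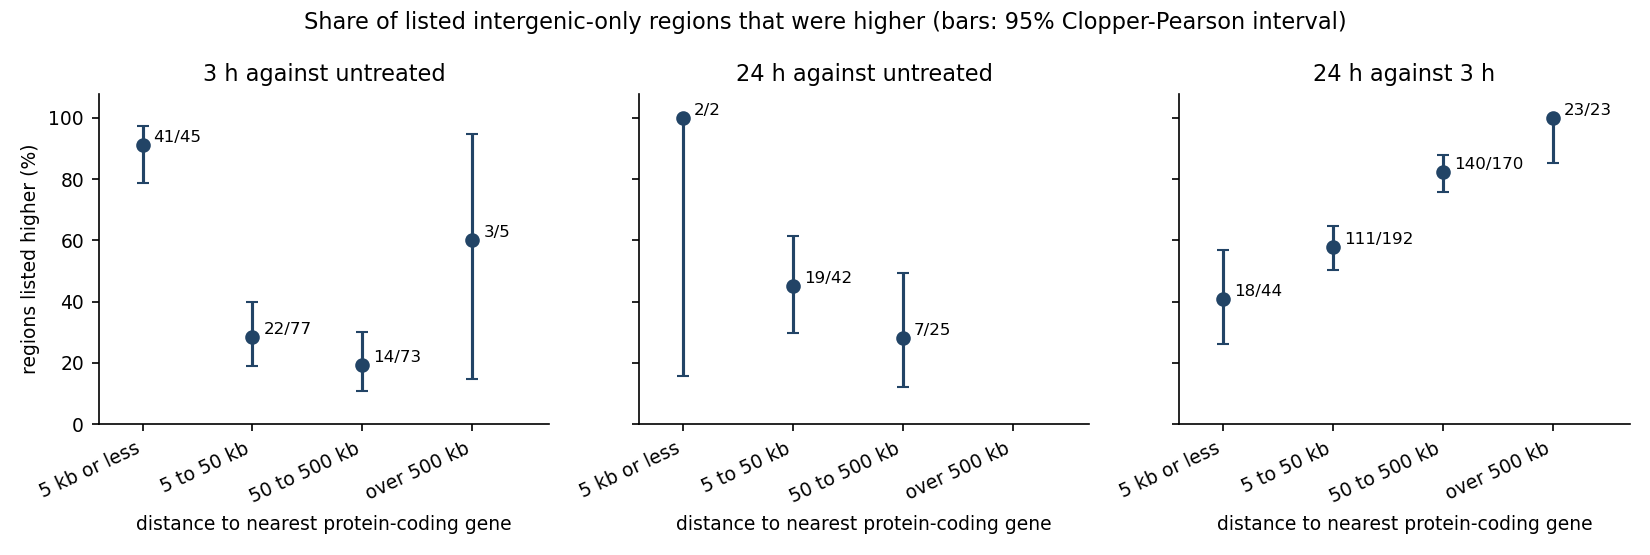
Percentage of listed intergenic-only regions that were higher, by distance to the nearest protein-coding gene, with 95% Clopper-Pearson intervals and counts beside the points. At 3 h the share is 91.1% within 5 kb, 19.2% at 50 to 500 kb and 60% of 5 regions beyond that, and it goes from 40.9% to 100% in 24 h against 3 h.

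Immediate early genes, the first to be transcribed after a stimulus, held the strongest of these flanks. By the authors' deposited table, accessibility rose 4.05-fold at 2621 bp past Klf2, a zinc finger transcription factor gene (chromosome 8, 72324275 to 72325110, log2 fold change 2.02, approximate standard error 0.25, edgeR's adjusted p = 0.00976). A second Klf2 region 3667 bp past the gene (chromosome 8, 72325321 to 72325862) had 1.53 in the authors' deposited table (edgeR's adjusted p = 0.452). For Btg2, an antiproliferative gene, the regions 17 and 836 bp past the end (chromosome 1, 134074234 to 134074848 and 134073089 to 134074029) had log2 fold changes of 1.5 and 1.13 in the authors' deposited table (edgeR's adjusted p = 0.117 and 0.338). Past Fos, a subunit of AP-1, the authors' deposited table gave 1.39 at 1262 bp and 1.76 at 2065 bp (chromosome 12, 85478536 to 85479168 and 85479339 to 85479584, edgeR's adjusted p = 0.117 and 0.119). At these genes each pair of neighbouring regions pointed the same way. Egr1, a zinc finger factor gene, had 0.69 at 32 bp and 1.48 at 2723 bp, and Klf4, a relative of Klf2, had 1.11 at 2250 bp and 1.22 at 2680 bp, in the authors' deposited table (edgeR's adjusted p of 0.345 or more). Ier2 had 0.90 at 4112 bp in the authors' deposited table. On the list of immediate early genes, 37 of 38 members were in RefSeq, and 7 had a region listed at 3 h for which they were the nearest gene within 100 kb. All 12 of their regions were higher and 1 of the 12 rose, with the farthest region 99676 bp from Btg1. The others lay within 5 kb of their gene. Of the 45 regions listed at 3 h within 5 kb of any protein-coding gene, 41 were higher (91.1%). The count on this list is near that share, and the difference was not tested.

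The RefSeq promoters of Klf2, Btg2 and Fos are shown because regions at these genes had the 4 smallest p among the intergenic regions at 3 h (GRCm38.p6, chr8:72318812-72319111 plus strand, chr1:134079106-134079405 minus strand and chr12:85473640-85473939 plus strand). They lie outside the regions, at the other end of each gene, and capitals mark the same letters as above.
Klf2: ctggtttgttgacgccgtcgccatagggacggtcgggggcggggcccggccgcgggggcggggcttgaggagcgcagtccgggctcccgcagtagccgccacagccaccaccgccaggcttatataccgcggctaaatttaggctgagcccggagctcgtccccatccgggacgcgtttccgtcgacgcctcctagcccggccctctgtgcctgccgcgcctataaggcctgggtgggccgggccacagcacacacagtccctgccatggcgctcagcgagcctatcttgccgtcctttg
Btg2: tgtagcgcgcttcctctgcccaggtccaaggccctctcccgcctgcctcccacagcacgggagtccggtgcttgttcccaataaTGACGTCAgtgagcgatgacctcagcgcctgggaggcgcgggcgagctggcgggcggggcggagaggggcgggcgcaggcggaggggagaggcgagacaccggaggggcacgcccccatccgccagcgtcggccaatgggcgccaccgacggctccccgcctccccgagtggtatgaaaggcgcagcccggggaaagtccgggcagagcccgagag
Fos: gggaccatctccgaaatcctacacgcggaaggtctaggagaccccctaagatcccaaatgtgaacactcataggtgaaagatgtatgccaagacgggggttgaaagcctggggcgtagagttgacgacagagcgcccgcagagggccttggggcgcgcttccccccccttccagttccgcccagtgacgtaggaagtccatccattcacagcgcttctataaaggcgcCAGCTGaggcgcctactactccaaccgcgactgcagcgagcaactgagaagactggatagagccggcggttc
The Btg2 window held TGACGTCA once and the Fos window CAGCTG once, and none of the 5 searched runs of letters was in the Klf2 window.

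Genes outside that list showed the same arrangement. The gene with the most regions was H3f3b, which encodes the replication-independent histone H3.3. Its 4 regions spanned 3826 bp (chromosome 11, 116017814 to 116021639) and began 322, 1059, 2224 and 3399 bp past the gene, with log2 fold changes of 1.12, 1.02, 1.22 and 1.04 in the authors' deposited table (edgeR's adjusted p from 0.338 to 0.961). Around Malat1 and Neat1, neighbouring nuclear long noncoding RNA genes, 3 regions were listed in the authors' deposited table, 0.86 at 96 bp past Malat1 and 0.90 and 1.13 at 931 and 2034 bp past Neat1 (edgeR's adjusted p = 0.759, 0.961 and 0.289). On the list of long noncoding RNA and histone genes, 8 of 12 members were in RefSeq, and the 7 regions listed at 3 h at H3f3b, Malat1 and Neat1 were all higher. They lay within 5 kb of these genes. Within 5 kb of any RefSeq gene, coding or not, 51 of the 78 regions listed at 3 h were higher (65.4%). For protein-coding genes such as H3f3b it was 41 of 45. These shares were not compared by a test. Hspb1, a small heat shock protein gene, had 0.94 and 1.08 at 433 and 3510 bp in the authors' deposited table. Single regions listed higher in the authors' deposited table lay at Vim, which encodes the intermediate filament vimentin (1.42), Rhob, a small GTPase gene (1.16), Sdc4, a syndecan gene (1.16), the kinase genes Mknk2 (0.81), Sgk1 (0.73), Pim1 (0.67) and Pim3 (0.65), and Spp1, which encodes osteopontin (0.73). None of these had an edgeR adjusted p below 0.05, the smallest being 0.737 at Vim. The 4 regions within 5 kb that were lower lay at Flna (-0.80), Cep152 (-0.72), Lamb3 (-0.71) and Dbt (-0.61) in the authors' deposited table.

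**Figure D3:**
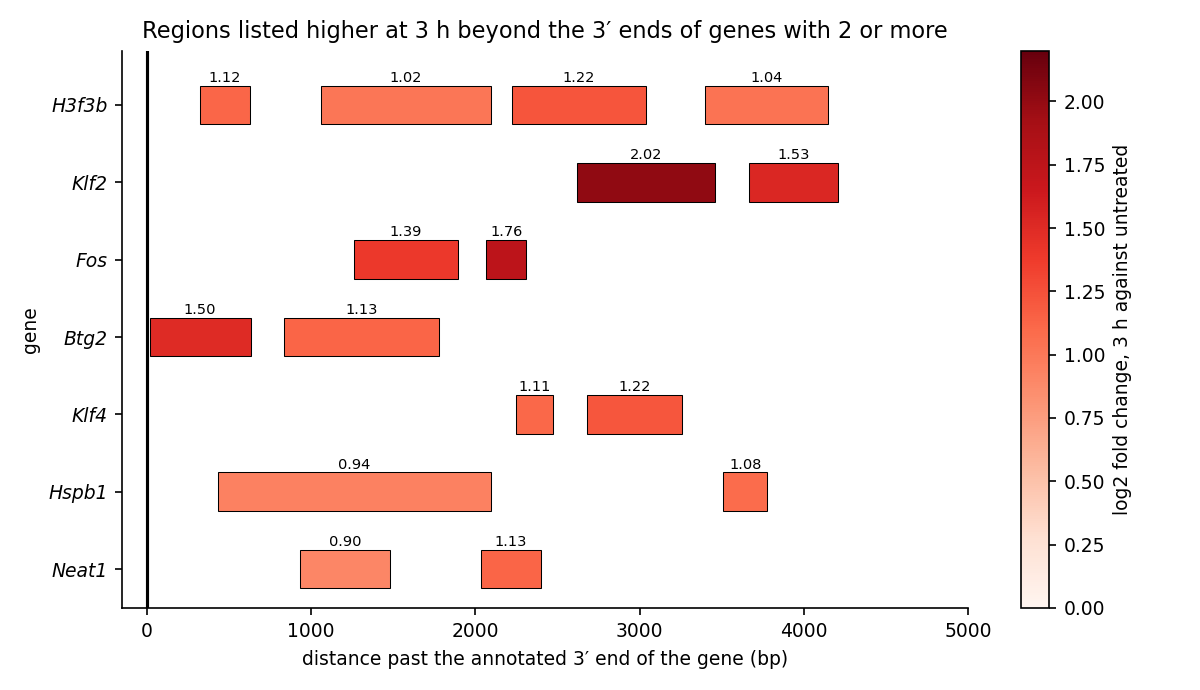
Regions listed higher at 3 h, drawn to scale by their distance in bp past the annotated 3′ end of the gene, for genes with 2 or more such regions and a known strand. Shade and printed number give the log2 fold change, from 0.90 near Neat1 to 2.02 near Klf2.

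Of the regions listed lower at 3 h, 4 lay within 5 kb of a protein-coding gene and 27 within 5 kb of any RefSeq gene, coding or not. None of the lower regions passed the adjusted threshold. Distances in this paragraph are to the nearest protein-coding gene. By p, the first in the authors' deposited table were 212621 bp from Exoc2 (-0.92) and 203630 bp from the prostaglandin receptor gene Ptger4 (-0.83). Then came 1 inside the noncoding gene Gm34119 24904 bp from Arhgap29 (-0.88) in the authors' deposited table. Regions 531894 bp from Klf4 (-0.84) and 194127 bp from the GDNF family receptor gene Gfra2 (-0.89) followed in the authors' deposited table. Across all of these edgeR's adjusted p ran from 0.383 to 0.678. Next in the authors' deposited table were regions 8590 bp upstream of Spp1 (-0.79), 14055 bp from the chemokine gene Ccl8 (-1.07) and 22634 bp from the mitochondrial channel gene Vdac1 (-0.95). Spp1 therefore had a lower region upstream and a higher one 600 bp downstream. At the low extreme, the authors' deposited table had -1.57 at 40424 bp from Ntm, -1.39 at 73959 bp from Alkbh8 and -1.25 at 36900 bp from Cd200. The highest after Klf2 in the authors' deposited table were 1.91 at 940181 bp from Pcdh20 and 1.84 at 29908 bp from Tbc1d5. All 5 were thinly covered, with a mean log2 CPM from -0.97 to 0.52 in the authors' deposited table against a median of 2.45 for the 200 regions. Higher regions lay in gene-rich sequence, with a median of 8.5 protein-coding genes in the surrounding 500 kb against 3 for lower ones, and had a median mean log2 CPM of 2.26 against 2.68. The part of gene density and of coverage in the directions was not tested.

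After 24 h, 69 intergenic regions changed with an edgeR adjusted p below 0.05, of which 28 rose and 41 fell. They were 46.0% of the 150 regions that changed anywhere, and 0.0459% of all tested regions rose and 0.0568% fell. The share that rose was 40.6% (95% Clopper-Pearson interval 28.9 to 53.1), against 48.1% (36.9 to 59.5) of the 81 other regions in the list and 37.2% (23.0 to 53.3) of the 43 in introns alone. These differences were not tested. The median log2 fold change was 1.26 for regions that rose and -1.09 for those that fell. Just 2 of the 69 lay within 5 kb of a protein-coding gene, and both rose. One was the Klf2 region described above (log2 fold change 1.37, edgeR's adjusted p = 0.0391 in the authors' deposited table). The other lay 1578 bp past Ddit4, a stress-induced inhibitor of mTORC1 (chromosome 10, 59947391 to 59948097, 0.99, edgeR's adjusted p = 0.0232 in the authors' deposited table).

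The pair of regions that rose with the smallest p at 24 h lay in or beside noncoding genes. The smallest p belonged to a region inside the noncoding gene Gm32328 (chromosome 6, 51163130 to 51163731), where accessibility rose by 1.53 on the log2 scale in the authors' deposited table (approximate standard error 0.18, edgeR's adjusted p = 0.00199). It rose by 1.5 at 2034 bp past Neat1 in the authors' deposited table (chromosome 19, 5822309 to 5822674, edgeR's adjusted p = 0.0077). Other regions that rose in the authors' deposited table lay 25100 bp from Baalc (1.58), 10434 bp past the splicing factor gene Cwc15 (1.26), 7240 bp past the heme exporter gene Flvcr1 (1.59), 26107 bp past Amotl2, a YAP-binding protein gene (1.31), and 487561 bp from Marcks (1.45), with edgeR's adjusted p from 0.0096 to 0.017. Regions 11735 bp from the galectin gene Lgals3 (1.63), 10025 bp from Zdhhc14 (1.21), 39671 bp from Lao1 (1.84) and 7307 bp from C77080 (1.38) followed in the authors' deposited table (edgeR's adjusted p = 0.0199 to 0.0221). The steepest rises beside Lao1 in the authors' deposited table were 1.66 at 5348 bp upstream of Herc3 and 1.64 at 8043 bp past Gdpd1.

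Of the regions that fell at 24 h, 0 lay within 5 kb of a protein-coding gene and 15 within 5 kb of any RefSeq gene, coding or not. Accessibility fell by 1.41 on the log2 scale 139394 bp upstream of Tgfbr2, the type II TGF-beta receptor gene (chromosome 9, 116314757 to 116315287, edgeR's adjusted p = 0.0096 in the authors' deposited table). The largest fall, 296670 bp upstream of Runx1, was -2.01 in the authors' deposited table (chromosome 16, 93122744 to 93123152, approximate standard error 0.30, edgeR's adjusted p = 0.0128). A pair of regions 10598 and 11848 bp upstream of Mir205hg, the host gene of a microRNA, fell together (chromosome 1, 193520808 to 193521147 and 193522058 to 193522866), with -1.87 and -1.09 in the authors' deposited table (edgeR's adjusted p = 0.0232 and 0.017). In and beside the noncoding gene Gm35837, between Col18a1 and Pofut2, 3 regions fell within 28816 bp (chromosome 10, 77201599 to 77230414), with -0.95, -1.33 and -0.87 in the authors' deposited table (edgeR's adjusted p = 0.0436, 0.0128 and 0.0449). These were among the best covered, with mean log2 CPM of 4.49, 5.40 and 5.78 in the authors' deposited table. Further falls in the authors' deposited table were -1.35 at 28150 bp from Lrrc49 and -1.02 at 9131 bp from the proton pump accessory gene Atp6ap2 on chromosome X. The authors' deposited table also gave -1.02 at 163608 bp from Foxd3, -1.22 at 5774 bp from the choline kinase gene Chkb and -1.24 at 194127 bp from Gfra2. Others in the authors' deposited table were -1.47 at 5848 bp past the calpain gene Capn13, -1.02 at 101710 bp from 1700021F07Rik and -1.82 at 13864 bp from Ecrg4. Across these further falls edgeR's adjusted p ran from 0.0141 to 0.0449.

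**Figure D4:**
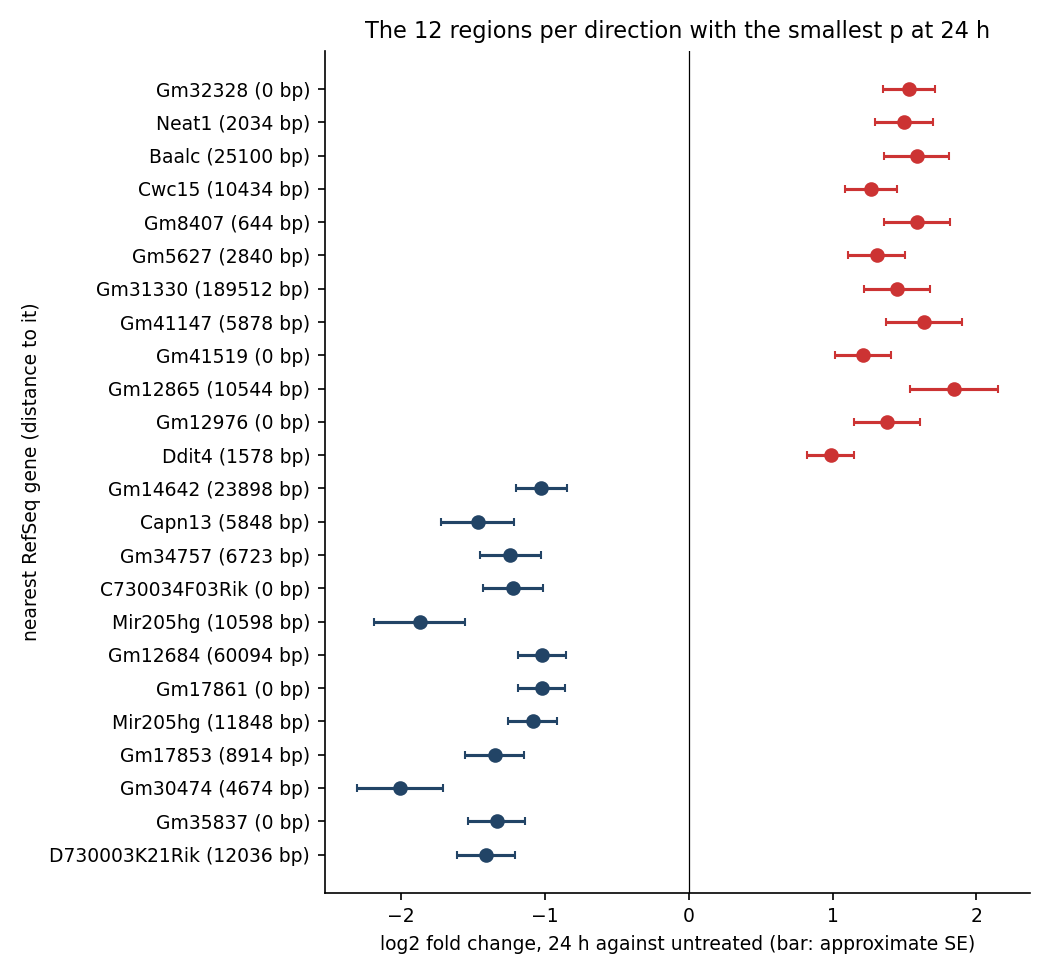
Log2 fold change at 24 h (horizontal axis, points, with the approximate standard error as bars) for the 12 regions that rose and the 12 that fell with the smallest p, named by the nearest RefSeq gene and the distance to it. Values run from -2.01 near Gm30474, the region upstream of Runx1, to 1.84 near Gm12865, the region near Lao1.

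Few members of the gene lists lay nearest to a region that changed at 24 h. Beside Klf2, Ddit4 (the 1 gene of 21 on the stress response list), Neat1 and Amotl2 (the 1 gene of 23 on the TGF-beta and YAP list), which had 1 region each that rose, these were Lif, a cytokine gene of the inflammation list (-1.35 at 5560 bp upstream, edgeR's adjusted p = 0.0444), and Dll1, a Notch ligand gene on the list of myoblast markers (-0.90 at 9747 bp, edgeR's adjusted p = 0.0392), in the authors' deposited table. The lists for myogenic regulators (31 genes), the sarcomere (43), amino acid metabolism (29), mTORC1 and insulin (29), hypoxia and mitochondria (24), proteolysis (20) and oxidative stress and p53 (20), and the markers of fibroblasts (15), myotubes (12) and adipocytes or smooth muscle (12), had 0 genes nearest to such a region. At 3 h, lists other than the immediate early and noncoding and histone genes gave 1 gene each or 0. Among those in the authors' deposited table were Vim as above, Foxo3, a transcription factor gene downstream of insulin (-0.91 at 77228 bp), and Myh2, which encodes a fast myosin heavy chain (-0.65 at 5618 bp). The list of 12 myotube markers had no gene nearest to a listed intergenic region in any comparison.

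Between 3 h and 24 h, 292 intergenic regions were listed higher and 137 lower, and none had an edgeR adjusted p below 0.05, although all 429 have a raw p below 0.005. Over all tested regions 0.475% were listed higher and 0.385% lower, and 0% had an adjusted p below 0.05. The share higher was 68.1% (95% Clopper-Pearson interval 63.4 to 72.5), against 48.5% (45.0 to 52.0) of the 827 other listed regions and 61.5% (56.7 to 66.1) of the 426 in introns alone. These shares were not compared by a test. Among the 14 regions with raw p no larger than the largest in the list for 24 h against untreated, the share was 85.7%. By distance to the nearest protein-coding gene, 18 of 44 regions within 5 kb were higher (40.9%, 95% Clopper-Pearson interval 26.3 to 56.8), 111 of 192 at 5 to 50 kb (57.8%, 50.5 to 64.9), 140 of 170 at 50 to 500 kb (82.4%, 75.8 to 87.8), and 23 of 23 beyond 500 kb (85.2 to 100). The median distance was 67177 bp for higher and 16097 bp for lower regions, with medians of 2 and 5 protein-coding genes in the surrounding 500 kb. Because this comparison uses the 3 h libraries again, its pattern is not independent of the one at 3 h.

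Regions higher at 24 h than at 3 h with the smallest p lay 17845 bp from Tpt1, a translationally controlled protein gene (1.17), 318162 bp from Gm5148 (1.27), 7240 bp past Flvcr1 (1.28), 97909 bp from Rbms1 (0.99), 91666 bp from Myof, the gene of the myoblast fusion protein myoferlin (1.41), 525549 bp from Intu (1.16), 18292 bp from Pank3, a coenzyme A synthesis gene (1.57), and 11735 bp from Lgals3 (1.37), in the authors' deposited table (edgeR's adjusted p = 0.195 to 0.222). Of the 23 regions beyond 500 kb, 2 had Zeb2, 2 had Intu and 2 had Gsdmc as the nearest protein-coding gene, and their values ran from 0.61 to 1.60 in the authors' deposited table. Regions lower at 24 h than at 3 h lay 24772 bp from Dkk3 (-0.93), 35069 bp from Col18a1 (-0.94), 11590 bp from Sstr5 (-0.87), 2723 bp from Egr1 (-1.42), 1308 bp past Rgr (-0.87), 836 bp past Btg2 (-1.01), 5848 bp past Capn13 (-1.18) and 31108 bp from Zbtb7c (-0.94), in the authors' deposited table (edgeR's adjusted p from 0.222 to 0.298). Past Lmna, which encodes the nuclear lamins A and C, regions at 1652 and 2285 bp had -1.04 and -0.77 in the authors' deposited table. The extreme values in the authors' deposited table, 2.01 near A230006K03Rik, 1.89 near Gm8115 and 1.88 near Gm39697 above 0, and -1.66 near Gm36420 and -1.47 near Gm40445 below it, again came from thinly covered regions, each with a mean log2 CPM below 0. Of the immediate early genes, 6 had regions in this comparison, 0 higher and 7 lower, beside the share of 0.385% listed lower overall. Within 5 kb of any protein-coding gene, 26 of the 44 regions listed in this comparison were lower. Members of the other lists nearest to a region with edgeR's adjusted p of 0.05 or more included Hdac4 (0.85), Odc1, which encodes ornithine decarboxylase (-0.94), Slc2a1 (0.91), Vegfa (0.66), Pparg (0.96), Cd34 (0.60), Smad3 (-0.67) and Smad7 (-0.80) in the authors' deposited table.

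For 70 of the 626 regions more than 1 comparison gave a value, and the comparisons share libraries, so their signs are set side by side and not counted as support. At 3 h and 24 h, each against untreated, the authors' deposited table gave 2.02 and 1.37 for the Klf2 region, 1.13 and 1.5 past Neat1, 0.88 and 1.53 in Gm32328, 0.99 and 1.84 near Lao1, -0.74 and -1.41 near Tgfbr2, -0.69 and -1.09 near Mir205hg, -0.65 and -1.02 near Atp6ap2, and -0.89 and -1.24 near Gfra2. For 3 h against untreated beside 24 h against 3 h, the authors' deposited table gave 1.5 and -0.88, then 1.13 and -1.01, for the regions past Btg2, 1.76 and -1.01 past Fos, 1.48 and -1.42 at Egr1, 0.90 and -0.86 at Ier2, and 1.04 and -0.64 past H3f3b. Some distal regions had the other order of signs in the authors' deposited table, with -1.03 and 1.41 near Myof, -0.83 and 0.71 near Ptger4, -0.86 and 1.17 near Map2k6 and -0.72 and 1.07 at 786920 bp from Nr2f2. Other regions beyond 5 kb had the same order as the early genes in the authors' deposited table. Among them were 0.77 and -0.66 at 67039 bp from Noct, and 1.04 and -1.05 at 19959 bp from Slc38a4. At 24 h against untreated and against 3 h, the authors' deposited table gave 1.59 and 1.28 near Flvcr1, 1.58 and 0.96 near Baalc, 1.31 and 0.87 near Amotl2, -2.01 and -1.26 near Runx1, and -1.33 and -0.83 in Gm35837. The regions in Gm32328 and near Tgfbr2 were the 2 with values in all 3 comparisons.

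**Figure D5:**
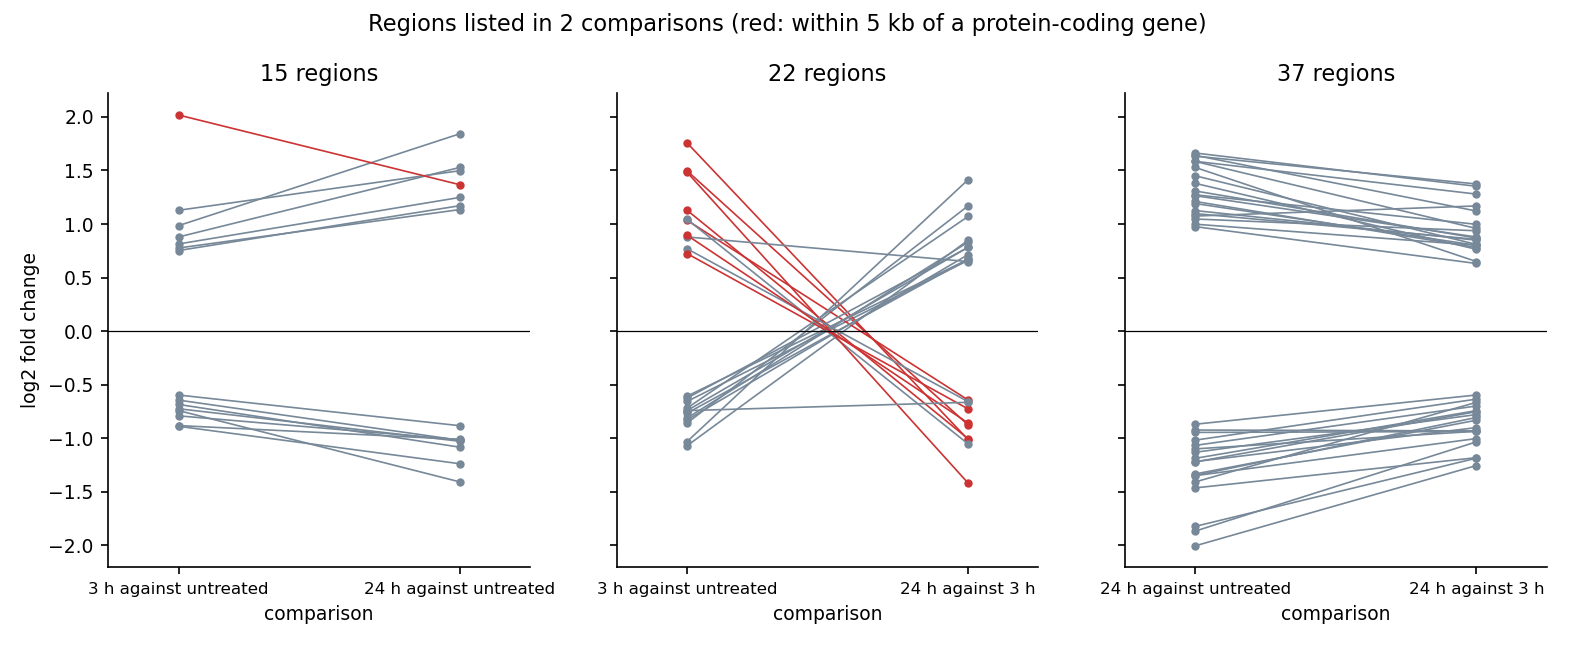
Log2 fold changes of regions listed in 2 comparisons, with 1 line per region and 1 panel per pair (15, 22 and 37 regions); red lines lie within 5 kb of a protein-coding gene. The comparisons share libraries, so slopes and crossings in the panels are descriptions.

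Intergenic regions also lay next to each other. Of the 626, 107 fell into 49 groups with gaps of at most 50 kb. Groups with 2 or more regions of 1 list numbered 15 at 3 h, 3 at 24 h and 17 in 24 h against 3 h, of which 1, 0 and 2 held both directions. Besides H3f3b, Malat1 with Neat1, and Gm35837, the groups with the most regions had 3 each. In 24 h against 3 h, 3 regions near Asap1 within 23339 bp and 3 near Ghr, the growth hormone receptor gene, within 23609 bp were listed higher, and 3 near Sstr5 within 22337 bp and 3 near Lmna and Mex3a within 44217 bp were listed lower. Of the Asap1 regions 1 also rose at 24 h against untreated, and of the Ghr regions 1 was also listed lower at 3 h. Near Cited2, 2 regions within 13279 bp were listed higher in 24 h against 3 h and 1 was listed lower at 3 h.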

How the data were processed

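Per the labels' protocols, libraries were made by the Omni-ATAC protocol. Per the submitters' processing notes, the named tools are Bowtie2 2.3.4.1, Trim Galore 0.4.5, cutadapt 1.15, Picard 2.20.2, and, without a version, edgeR, MACS2, bedtools, SAMtools, MultiQC and FastQC, with the mm10 build. Order, settings, any transposase shift and pooling before peak calls: not given in the sources used here. Values of log2 fold change and mean log2 CPM are those the authors deposited. Raw p-values and Benjamini-Hochberg adjusted p-values are those the authors deposited. Their F statistic, also deposited, is a score.

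Lines were collapsed to 1 per region and list. The number tested, 146047, follows from adjusted p, raw p and rank in each list. Distances are edge to edge to RefSeq genes (GRCm38), and strands come from the RefSeq promoter table or the deposited annotation. Only the authors' edgeR tests were used; no test across libraries could be run. Named regions are all changed at 24 h (up to 12 per direction), per comparison and direction the 8 with the smallest p and the 3 with the largest change, those in 2 lists (up to 8 per pair), up to 6 per gene list and the 6 largest groups; values near Pim1, Pim3, Flna and other 3 h flanks, near Lmna, and beyond 500 kb were added after they were seen. A few regions that this rule names are not reported here. The members and the 16 gene lists were chosen with earlier results of these data known. With no genome, the planned share of regions holding each motif was not run. Distance and tested-number code was checked on simulated data. Versions were Python 3.11.15, pandas 2.3.3, numpy 2.4.6, statsmodels 0.14.6, matplotlib 3.10.9 and scipy 1.17.1.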

Additional observations from a re-analysis of the deposited data

How the results depend on the processing

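No paired analysis was possible because the deposited tables give no values per library; for the same reason no replicate could be left out. Requiring an adjusted p below 0.05 left 1 higher and 0 lower region at 3 h and 0 higher and 0 lower in 24 h against 3 h. A common limit set at the highest raw p listed at 24 h, an alternative added after seeing the data, left 10 higher and 0 lower regions at 3 h and 12 higher and 2 lower in 24 h against 3 h. The RefSeq check and a mean log2 CPM of at least 1 kept all 6 counts by direction within 1.5 times. The share of higher regions near protein-coding genes at 3 h was 73.4% with a 10 kb limit and 100% at raw p below 0.001, and 88.9% per gene and 90.2% at a mean log2 CPM of at least 1, all added after seeing the data. Counts of regions listed in 2 comparisons were the same by name, by 1 base of overlap and by 50% reciprocal overlap. The lists share 1 set of named regions with fixed coordinates, so matching by overlap repeats matching by name and is no separate check. Medians of distance were longer for protein-coding genes alone in all 6 groups. They could not be shorter, since these genes are a subset of all RefSeq genes. In 3 of the 6 groups the median moved by at least the standard deviation of the distances to any gene. Without depth per library, the precision behind a single region rests on the authors' test.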

Other observations

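Intergenic-only regions lay on all autosomes and on chromosome X. Chromosome 15 held the most, 60 of the 626 (9.58%) beside 137 of all 1832 listed regions (7.48%), and chromosome X held 13 of its 22 listed regions. These shares were not tested, since the number of tested regions per chromosome is not known here.

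Lower regions were wider than higher ones in each comparison, with medians of 656.5 and 534 bp at 3 h, 752 and 612 bp at 24 h and 670 and 604 bp in 24 h against 3 h. Regions in CpG-poor sequence alone made up 85.0% of higher and 100% of lower intergenic regions at 3 h, beside 78.1% of all regions listed at 3 h. All 11 CpG shelves touched at 3 h were in higher regions.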
